A study of Mus musculus with 10 samples.

Results

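The proteasome genes described here are the mouse genes whose symbol begins with Psma, Psmb, Psmc, Psmd, Psme, Psmf or Psmg. The arrays measured 49 of them, out of 18193 genes in all, and each gene was read through 1 probe set, a group of short oligonucleotides against 1 transcript. Of the 49 genes, 27 had several probe sets, and the brightest over the 10 arrays was taken. By role they were 14 genes of the standard 20S core, 4 of the immunoproteasome, 17 of the 19S regulator, 7 assembly factors, 2 activators, 1 inhibitor, 2 tissue-specific core genes and 2 genes that share the naming but encode no proteasome component. The immunoproteasome genes Psmb8, Psmb9, Psmb10 and Psme1 were set against the other 45 members. The fifth immunoproteasome gene, Psme2, has no value here, because its only probe set is annotated to Psme2b as well.

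The proteasome is the protease that degrades most ubiquitin-tagged proteins of a cell. Its 20S core is a barrel of alpha rings on the outside and beta rings inside, where Psmb5, Psmb6 and Psmb7 carry the active sites, and the 19S regulator, with an ATPase base and a lid, recognises, unfolds and feeds in the substrates. In lymphocytes and in cells exposed to interferon γ, new cores take up Psmb8, Psmb9 and Psmb10 in place of Psmb5, Psmb6 and Psmb7. This immunoproteasome, often capped by the PA28 activator of Psme1 and Psme2, is known for supplying peptides to MHC class I molecules and for its high content in T cells.

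The study asked how T cells that meet B lymphoma cells carrying the Epstein-Barr virus proteins LMP1 and LMP2A become cytotoxic. Naïve CD4+ and naïve CD8+ T cells (TCRβ+ CD62L+ CD44-) were sorted from spleens of wild-type C57BL/6 mice and each was cultured on its own with irradiated LMP1/2A+ lymphoma cells of the B lineage in the presence of IL-2. The lymphoma lines came from mice in which Cγ1-Cre turns on LMP1 and LMP2A in germinal center B cells, after passage through immunodeficient mice. Each of 5 groups had 2 arrays: CD4+ effector-memory (TEM) cells, CD4+ cells labelled memory and uncultured naïve CD4+ cells, then CD8+ TEM cells and uncultured naïve CD8+ cells. The TEM and memory groups were taken on day 25 of culture, TEM cells are CD62L- CD44+ in the study, and the title of the memory group carries the letters CM. The study names wild-type mice for this culture and gives no strain in its description of the arrays. The labels also carry a foxo1 status that varied within groups, and the series text names a CRISPR-edited cell line. A wild-type genotype of all groups thus rests on the description of the culture. Culture, stimulation, IL-2 and lymphoma contact separate every TEM or memory sample from every naïve sample. No label says whether the 2 arrays of a group came from separate mice or cultures, so the p-values below measure only the spread between these arrays, which may be technical. Ages of the mice are not given in the sources used here.

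Levels are log2 values after RMA, a method that combines and normalizes the probes of a set, so 1 unit is a 2-fold difference. Cd4 and Cd8b1, which encode co-receptors, fitted the labels, with Cd4 at 11.50 to 11.89 in the CD4+ groups and 4.10 to 6.89 in the CD8+ groups. Cd3d lay between 12.93 and 13.22 on all arrays. Replicate 2 of the naïve CD8+ cells stood apart, with Xist at 3.97 there while the other arrays had 11.94 to 13.02, Cd74 at 9.57 against 6.12 in replicate 1, and 45 of the 49 proteasome genes above replicate 1. Of 16 B lineage markers measured, 9 rose in CD4+ TEM cells, 9 rose and 1 fell in CD8+ TEM cells, and 11 rose and 1 fell in memory cells. Over all genes, 16.4% rose and 10.1% fell in CD4+ TEM, 20.9% and 17.2% in CD8+ TEM, and 13.5% and 9.78% in memory cells. Of 10 myeloid markers 2 rose and 2 fell in each of these comparisons, the 2 erythroid genes measured were called in none, and of 6 genes of T cell identity 3 fell in CD4+ TEM, 3 in CD8+ TEM and 2 in memory cells. Of the co-receptor genes of the other lineage, Cd8a rose by 2.85 in CD4+ TEM and Cd4 by 2.50 in CD8+ TEM cells. The summed linear level of the B lineage markers, in units of 1000, was 17.8 to 20.1 in CD4+ TEM, 14.8 to 16.3 in memory and 0.411 to 0.482 in naïve CD4+ cells, and 37.2 to 38.0 in CD8+ TEM against 0.655 to 2.79 in naïve CD8+ cells. Ebf1, Cd74 and the MHC class II genes H2-Aa, H2-Ab1 and H2-Eb1 changed by at least 5.24 log2 units in every cultured group, whereas Pax5 read 3.58 to 4.33 on all arrays. The Gapdh control probes differed between their 3' and 5' ends by 0.91 to 1.72 log2 units in the cultured groups, against 2.42 to 2.75 in naïve cells. For the beta-actin controls this difference was 1.48 to 1.49 in CD4+ TEM, 1.59 to 2.10 in memory and 1.24 to 1.46 in naïve CD4+ cells, and 0.77 to 0.84 in CD8+ TEM against 1.73 to 2.13 in naïve CD8+ cells, so only in CD8+ cells did both controls go the same way. The part of lymphoma RNA and of RNA quality in the proteasome values was not tested, and fewer cells of a type cannot be told apart from less RNA per cell in bulk samples.

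**Figure D1:**
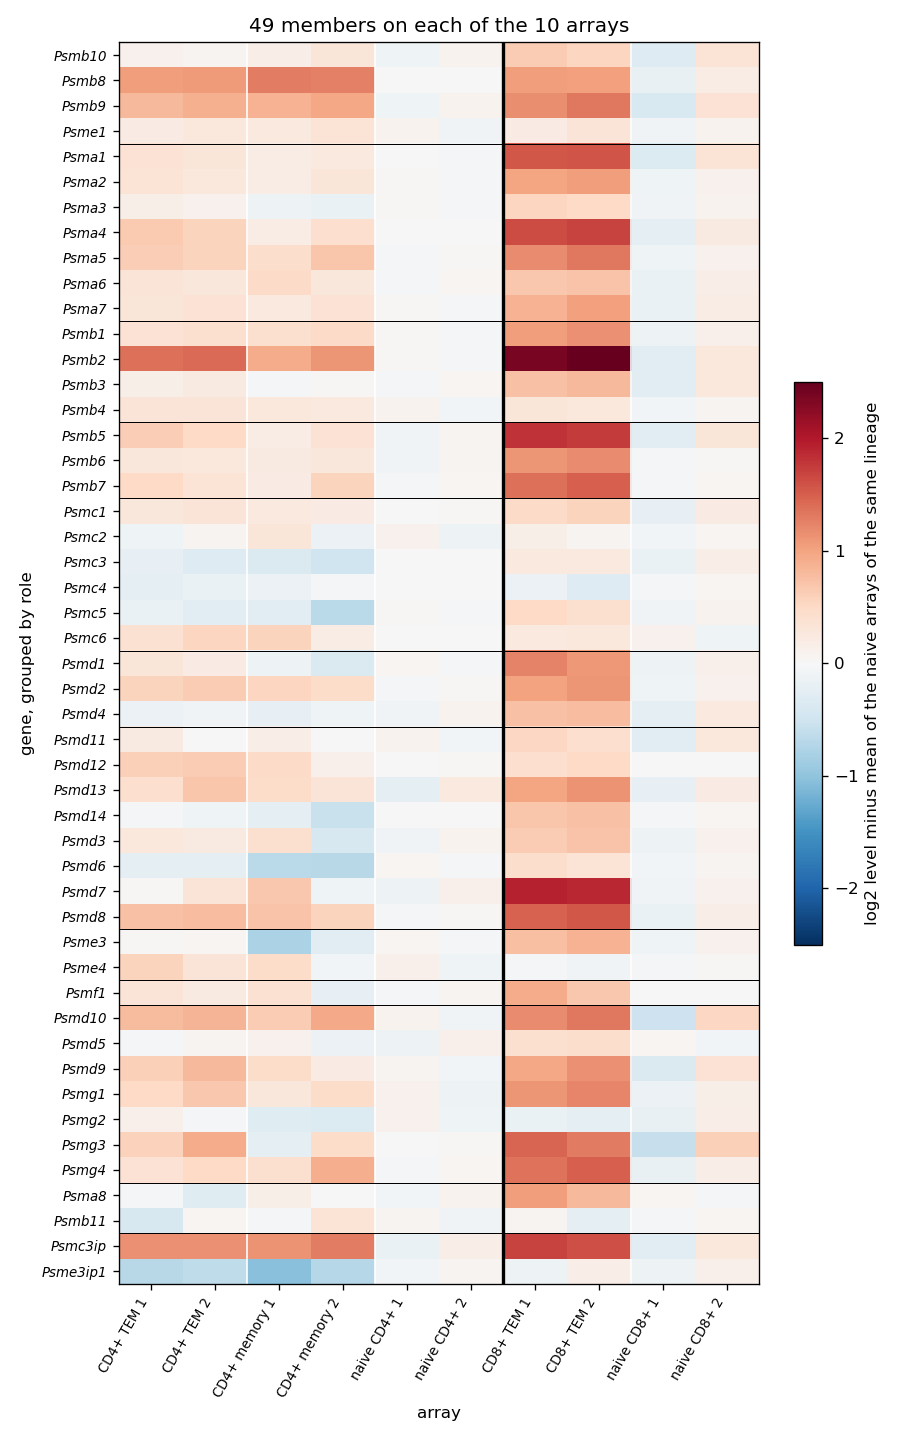
Level of the 49 members (rows, grouped by role) on each of the 10 arrays (columns), in log2 units relative to the mean of the naïve arrays of the same lineage, with red above and blue below that mean. The 2 CD8+ TEM columns are red in most rows, and Psmb8, Psmb9, Psmb2 and Psmc3ip are red in all 3 cultured groups. When arrays were centred on the median of their genes, 19 members rose and 5 fell in CD8+ TEM cells, beside 2420 and 8336 of all 18193 genes.

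Promoters of 4 members are shown because their genes carry the main contrast below, the inducible subunits Psmb8 and Psmb9 and the standard subunits Psmb5 and Psmb6. Each runs from 250 bases before to 50 after the start site in RefSeq (GRCm38.p6), 5' to 3' on the gene's strand. Psmb8 lies at chr17:34197945-34198244 (plus strand), Psmb9 at chr17:34187281-34187580 (minus), Psmb5 at chr14:54617946-54618245 (minus) and Psmb6 at chr11:70525107-70525406 (plus). Capitals mark matches, on either strand, to the antioxidant response core TGACNNNGC, the interferon-stimulated response core GAAANNGAA, the gamma-activated core TTCNNNGAA, the CCAAT box CCAAT and the GC box GGGCGG.
Psmb8: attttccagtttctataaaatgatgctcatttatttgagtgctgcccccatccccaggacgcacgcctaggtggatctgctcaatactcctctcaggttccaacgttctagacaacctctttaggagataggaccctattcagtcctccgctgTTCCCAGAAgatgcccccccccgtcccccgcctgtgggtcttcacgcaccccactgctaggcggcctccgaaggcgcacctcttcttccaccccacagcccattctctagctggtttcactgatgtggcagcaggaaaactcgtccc
Psmb9: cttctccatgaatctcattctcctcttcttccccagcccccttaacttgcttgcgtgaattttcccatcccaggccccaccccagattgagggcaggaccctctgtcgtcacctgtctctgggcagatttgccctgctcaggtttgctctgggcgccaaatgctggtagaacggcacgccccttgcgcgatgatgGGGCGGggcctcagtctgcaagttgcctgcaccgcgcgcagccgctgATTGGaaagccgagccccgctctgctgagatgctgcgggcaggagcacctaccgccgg
Psmb5: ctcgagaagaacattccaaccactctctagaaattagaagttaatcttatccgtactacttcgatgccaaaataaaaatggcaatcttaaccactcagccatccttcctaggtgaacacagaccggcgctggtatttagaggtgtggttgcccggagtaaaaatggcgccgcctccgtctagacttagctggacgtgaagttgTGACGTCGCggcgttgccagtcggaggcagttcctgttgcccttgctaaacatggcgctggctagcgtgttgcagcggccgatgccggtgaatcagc
Psmb6: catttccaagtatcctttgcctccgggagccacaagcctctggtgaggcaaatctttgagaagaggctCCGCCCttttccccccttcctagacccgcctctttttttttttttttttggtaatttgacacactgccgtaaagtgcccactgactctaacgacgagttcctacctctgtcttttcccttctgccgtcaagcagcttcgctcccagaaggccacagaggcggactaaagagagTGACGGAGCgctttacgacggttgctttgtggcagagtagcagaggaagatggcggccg
In these windows Psmb8 held a gamma-activated core at -97, Psmb9 a GC box at -55 and a CCAAT box at -8, Psmb5 an antioxidant response core at -47 and Psmb6 one at -9 with a GC box at -182, counted from the start site. Matches to GAAANNGAA and TTCNNNGAA can overlap each other, and the marked matches did not.

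Across the family, 44 promoters of 41 members were in the RefSeq table, which holds 32851 promoters in all. The antioxidant response core was present in 13.6% of the members' promoters and in 12.4% of all, the gamma-activated core in 6.82% and 8.30%, and the CCAAT box in 36.4% and 37.4%. The interferon-stimulated core was found in 15.9% of the members' promoters, among them that of Psme1, against 8.56% of all, and the GC box in 52.3% against 35.7%. These are matches of letters in a short window and were not tested as sites.

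Psmb8 and Psmb9, the inducible subunits that replace Psmb5 and Psmb6, were 1.81 to 2.41 times as high in every cultured group as in the naïve cells of the same lineage, while Psmb10 and Psme1 moved less and passed the test in none of the 3 comparisons. Psmb8 read 12.68 and 12.69 in CD4+ TEM, 12.90 and 12.89 in memory and 11.62 and 11.63 in naïve CD4+ cells, and 12.81 and 12.80 in CD8+ TEM against 11.59 and 11.96 in naïve CD8+ cells. No cultured array overlapped a naïve one. The log2 fold change of Psmb8 was 1.06 (SE 0.15, adjusted p = 0.0012) in CD4+ TEM, 1.27 (SE 0.15, adjusted p = 0.00059) in memory and 1.03 (SE 0.15, adjusted p = 0.000821) in CD8+ TEM cells. For Psmb9 the arrays gave 11.38 and 11.45 in CD4+ TEM, 11.43 and 11.54 in memory and 10.47 and 10.66 in naïve CD4+ cells, and 11.84 and 11.99 in CD8+ TEM against 10.29 and 11.04 in naïve CD8+ cells. Its groups were likewise apart, although the 2 naïve CD8+ arrays differed by more than any other pair. The changes of Psmb9 were 0.85 (SE 0.23, adjusted p = 0.0278) in CD4+ TEM, 0.92 (SE 0.23, adjusted p = 0.0231) in memory and 1.25 (SE 0.23, adjusted p = 0.00307) in CD8+ TEM cells, and both CD4+ calls were lost when any array of a compared group was left out and when arrays were centred on the median of their genes.

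Psmb10, the inducible partner of Psmb7, read 11.01 and 10.97 in CD4+ TEM, 11.06 and 11.20 in memory and 10.80 and 10.99 in naïve CD4+ cells, and 11.55 and 11.45 in CD8+ TEM against 10.59 and 11.26 in naïve CD8+ cells. Its CD4+ TEM and naïve CD4+ arrays overlapped, and the CD8+ change of 0.58 (SE 0.21, adjusted p = 0.0679) was called without replicate 2 of the naïve CD8+ cells, where it was 0.91 with an adjusted p of 0.00453, and not when any other array was left out. It was also called with an intensity trend and among the genes with a group mean of at least 6. Psme1, the alpha subunit of PA28, lay between 12.07 and 12.94 on all arrays, with changes of 0.23 (SE 0.14, adjusted p = 0.284) in CD4+ TEM, 0.29 (SE 0.14, adjusted p = 0.179) in memory and 0.27 (SE 0.14, adjusted p = 0.171) in CD8+ TEM cells. Its groups did not overlap in any of the 3 comparisons, yet the differences stayed below the test's threshold in the main fit. With an intensity trend those of the memory and CD8+ TEM cells passed. That of the CD4+ TEM cells passed in an alternative fit, which is not counted as a rise here. Over all fits the CD4+ TEM change of Psme1 ran from -0.359, with centring on the median of the genes, to 0.314. Psmb10 and Psme1 were below rather than above naïve levels in CD4+ TEM and memory cells, and Psme1 in CD8+ TEM cells, when arrays were centred on the median of their genes.

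**Figure D2:**
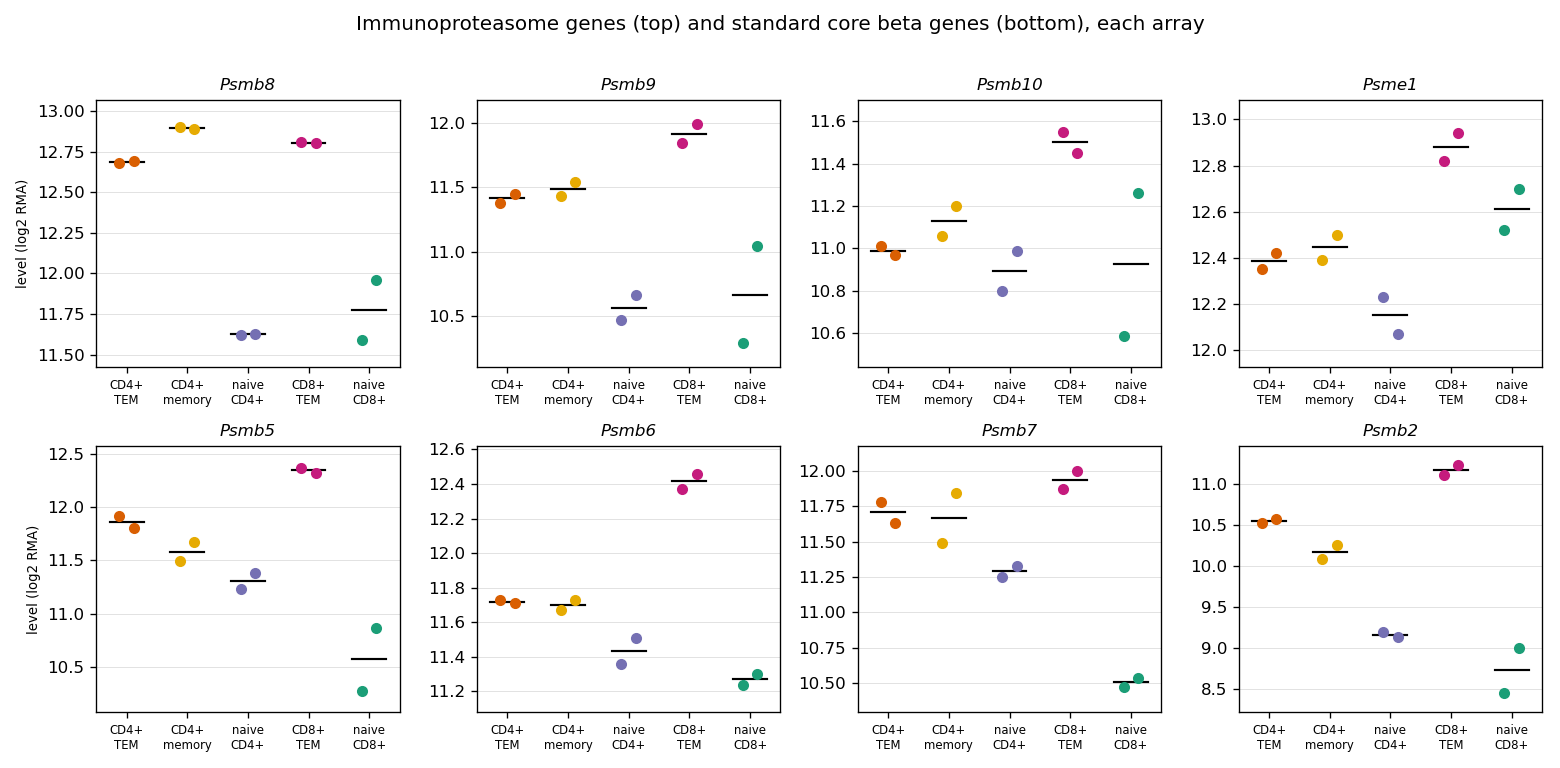
Log2 RMA level of the 4 immunoproteasome genes (top row) and of 4 beta genes of the standard core (bottom row) on each array, with dots for the 2 arrays of a group, a line for their mean and a separate axis range for each gene. Psmb8 and Psmb9 are higher in all cultured groups, whereas Psmb5, Psmb6 and Psmb7 stand out mainly in CD8+ TEM cells.

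The replaced subunits followed another pattern, with rises in CD8+ TEM cells and smaller differences in the CD4+ groups that did not pass the test. Psmb5, the chymotrypsin-like subunit, read 12.37 and 12.32 in CD8+ TEM cells, against 10.28 and 10.87 in naïve CD8+ cells, a change of 1.77 (SE 0.20, adjusted p = 0.000209). In CD4+ cells its levels were 11.92 and 11.80 in TEM, 11.49 and 11.67 in memory and 11.23 and 11.38 in naïve cells, with changes of 0.55 (SE 0.20, adjusted p = 0.0809) and 0.27 (SE 0.20, adjusted p = 0.393) for TEM and memory. The CD4+ groups did not overlap, but the changes stayed below the test's threshold. Psmb6, the caspase-like subunit, changed by 1.15 (SE 0.13, adjusted p = 0.000188) in CD8+ TEM cells and by 0.28 (SE 0.13, adjusted p = 0.147) in CD4+ TEM cells. Psmb7, the trypsin-like subunit, changed by 1.43 (SE 0.16, adjusted p = 0.000177) in CD8+ TEM cells and by 0.41 (SE 0.16, adjusted p = 0.0947) in CD4+ TEM cells. In CD4+ TEM cells all 3 differences were called as rises with an intensity trend, with adjusted p of 0.0306 for Psmb5, 0.0264 for Psmb6 and 0.0293 for Psmb7, and that of Psmb5 also without either naïve CD8+ array and in a fit of the compared groups alone. In memory cells the trend called Psmb6 and Psmb7, with adjusted p of 0.0393 and 0.048, and Psmb7 was also called without replicate 1 of the memory cells. All 3 became negative in CD4+ TEM cells after centring on the median of the genes.

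Since each inducible subunit takes the place of a standard one, the difference between their levels, relative to its mean in naïve cells of the lineage, was computed for each array. For Psmb8 minus Psmb5 it was 0.44 and 0.58 in CD4+ TEM against 0.07 and -0.07 in naïve CD4+ cells, and 1.09 and 0.90 in memory cells. In CD8+ TEM cells the same difference was -0.76 and -0.73, against 0.11 and -0.11 in naïve CD8+ cells. Psmb8 thus gained more than Psmb5 in both CD4+ groups and less than Psmb5 in CD8+ TEM cells, each against its own naïve cells. The naïve cells differed too, as Psmb8 minus Psmb5 was 0.88 higher in naïve CD8+ than in naïve CD4+ cells. Between the TEM groups it was 0.37 higher in CD4+ cells. For Psmb9 minus Psmb6 the means were 0.57 in CD4+ TEM, 0.65 in memory and 0.10 in CD8+ TEM cells, where the groups overlapped. For Psmb10 minus Psmb7 they were -0.31 in CD4+ TEM, -0.14 in memory and -0.86 in CD8+ TEM cells, with overlapping arrays in memory cells. Psme1 minus Psme3, the nuclear PA28 gamma, gave 0.20 in CD4+ TEM, 0.83 in memory and -0.54 in CD8+ TEM cells. Naïve CD8+ against naïve CD4+ cells gave 0.267, with overlapping arrays, for Psmb9 minus Psmb6. It gave 0.82 for Psmb10 minus Psmb7 and 0.835 for Psme1 minus Psme3. These differences within an array are the same under any scaling of whole arrays by a constant, and they were described, not tested.

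Over the whole set, the median log2 change of the 4 immunoproteasome genes was 0.54 in CD4+ TEM, 0.61 in memory and 0.80 in CD8+ TEM cells, and that of the other 45 members 0.30, 0.22 and 0.82. The medians over all genes were 0.02, 0.08 and 0.06. The immunoproteasome median thus exceeded that of the other members by 0.24 in CD4+ TEM and 0.38 in memory cells, and the difference was -0.01 in CD8+ TEM cells. With probe sets of a shared-transcript suffix left out, which removes the Psmb8 probe set, the difference of the medians was -0.07 in CD4+ TEM and -0.45 in CD8+ TEM cells.

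In CD8+ TEM cells, 34 of the 49 members rose and 0 fell, where 20.9% of all genes rose and 17.2% fell. By share, 69.4% of the members rose. Among the 10120 genes with a group mean of at least 6, the limit taken here for dim signal, 34.2% rose, and of the 47 members at that level 37 did. At an unadjusted p under 0.05, 39 members were higher and 0 lower, beside 8139 of all 18193 genes in either direction. Centring arrays on the median of their genes moved the median change of all genes to -0.47 and that of the members to 0.29. Then 19 members rose and 5 fell, beside 2420 and 8336 of all 18193 genes. Leaving out 1 array in turn gave 24 to 37 rises and 0 falls, and without replicate 2 of the naïve CD8+ cells 34 rose, of which 32 were among the original 34.

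The rises in CD8+ TEM cells covered nearly the whole standard 20S core, with 13 of 14 genes higher and a median log2 change of 1.12. All 7 alpha ring genes, which form the gate of the barrel, rose, from 0.51 (SE 0.13, adjusted p = 0.0128) for Psma3 to 1.66 (SE 0.17, adjusted p = 0.000151) for Psma4. Psma4 read 11.34 and 11.39 in CD8+ TEM cells, against 9.48 and 9.93 in naïve CD8+ cells. Psma1, another alpha subunit, gave 11.74 and 11.77 in CD8+ TEM against 9.85 and 10.53 in naïve CD8+ cells. The CD8+ TEM arrays lay above both naïve arrays for each of these genes. Psmb2, a structural beta subunit, showed the largest change of the family, with 11.11 and 11.23 in CD8+ TEM cells, against 8.45 and 9.0 in naïve CD8+ cells, a 5.43-fold difference and a log2 change of 2.44 (SE 0.19, adjusted p = 3.04e-05). Psmb1 and Psmb3, which are structural beta subunits as well, rose by 1.09 and 0.77, while Psmb4, at 0.28 (SE 0.13, adjusted p = 0.132), did not pass the test through its brightest probe set, although another bright one rose by 1.22.

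**Figure D3:**
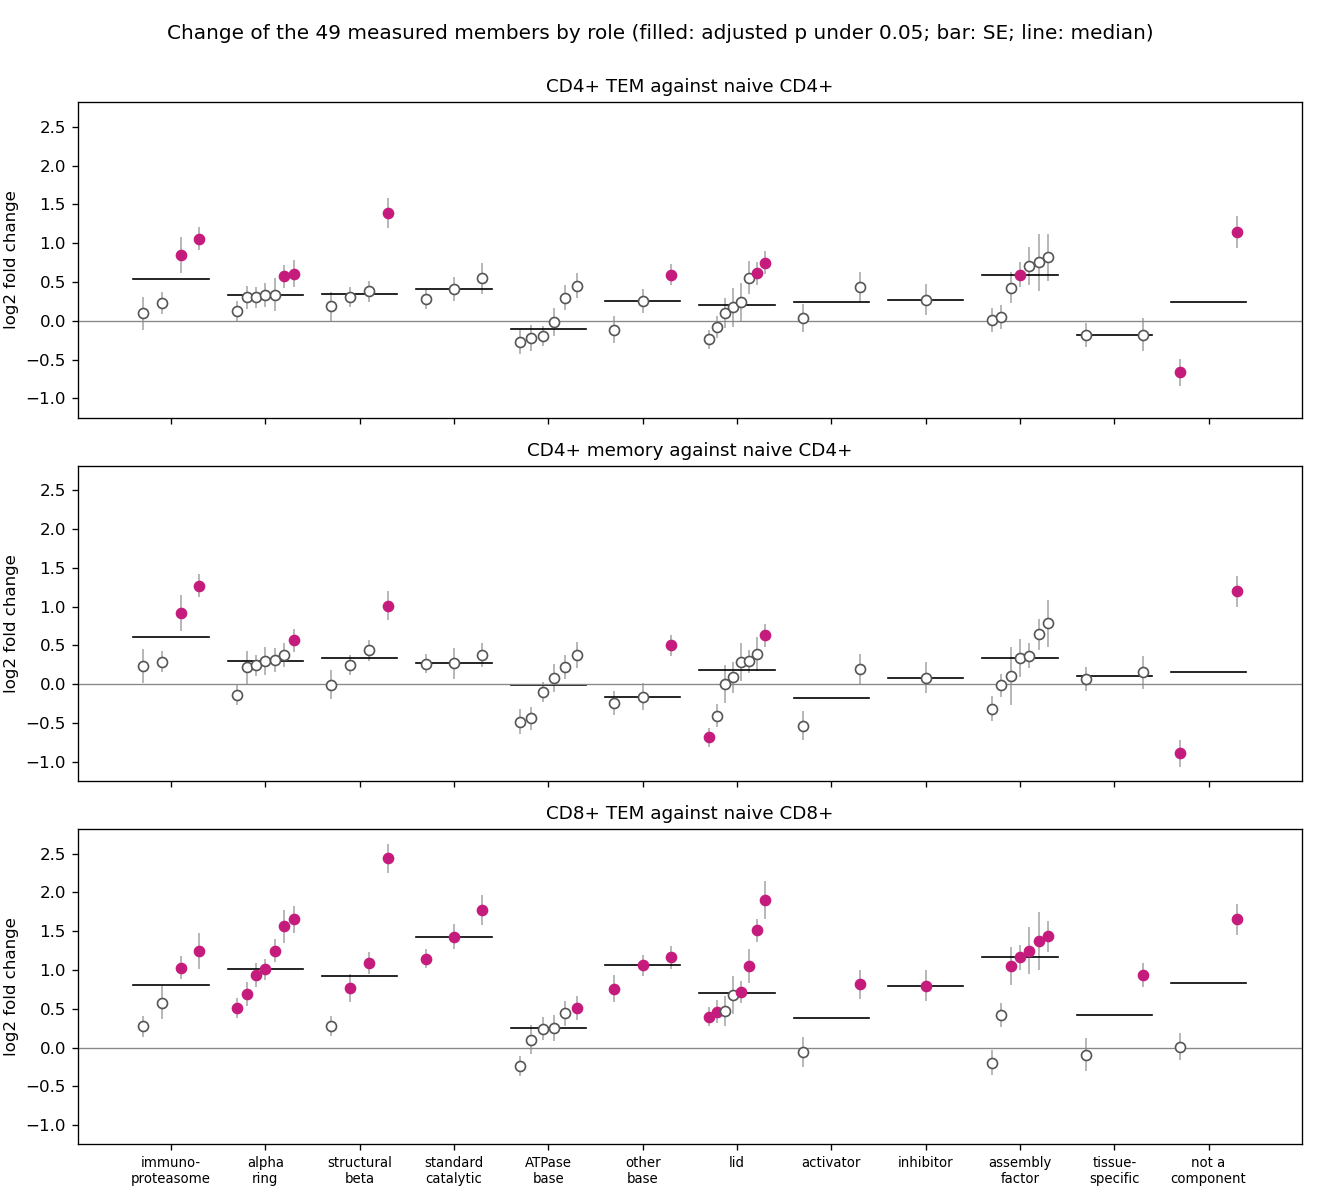
Log2 fold change of each of the 49 members, with its standard error, by role, in CD4+ TEM, CD4+ memory and CD8+ TEM cells, each against the naïve cells of its lineage. Filled points pass the test (adjusted p under 0.05) and lines mark the median of a role; in CD8+ TEM cells the alpha ring is filled throughout, while the ATPase base has 1 filled point, through the brightest probe set of each gene. With arrays centred on the median of their genes, 3 members rose and 16 fell in CD4+ TEM cells, beside 1843 and 9870 of all 18193 genes.

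The 19S regulator was less uniform, with 10 of 17 genes higher in CD8+ TEM cells and a median of 0.51. Of the 6 ATPases that unfold the substrate, 1 passed the test through its brightest probe set, Psmc1, at 0.51 (SE 0.16, adjusted p = 0.0333), and Psmc4 was slightly below naïve levels, with 11.72 and 11.53 in CD8+ TEM against 11.83 and 11.90 in naïve CD8+ cells and a change of -0.24 (SE 0.13, adjusted p = 0.199). Other probe sets of Psmc2, by 0.63, and of Psmc6, by 0.93 and 1.11, rose as well. All 3 other base genes rose. Psmd1, a scaffold of the base, read 11.43 and 11.27 in CD8+ TEM cells, against 10.06 and 10.31 in naïve CD8+ cells, a change of 1.16 (SE 0.15, adjusted p = 0.000512), and Psmd2, the other scaffold, changed by 1.06. The ubiquitin receptor Psmd4 rose by 0.76 through its brightest probe set. In the lid, 6 of 8 genes rose, led by Psmd7, with 8.62 and 8.57 in CD8+ TEM cells, against 6.60 and 6.79 in naïve CD8+ cells and a change of 1.90 (SE 0.25, adjusted p = 0.000471), and by Psmd8, with 1.51 (SE 0.15, adjusted p = 0.000111). Psmd14, the lid subunit that removes ubiquitin chains, changed by 0.72 (SE 0.14, adjusted p = 0.00434). The rises of Psmd6 and Psmd12, by 0.40 and 0.46, were lost in most alternative fits. With arrays centred on the median of their genes 4 of the 17 genes rose and 1 fell, beside 2420 and 8336 of all 18193 genes.

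Outside the core and regulator, 5 of 7 assembly factors rose in CD8+ TEM cells. Psmg4, a chaperone of alpha ring assembly, read 9.33 and 9.47 in CD8+ TEM cells, against 7.79 and 8.14 in naïve CD8+ cells, a change of 1.43 (SE 0.20, adjusted p = 0.000666). Psmg2, the usual partner of Psmg1 in the same process, read 10.04 and 9.98 in CD8+ TEM against 10.03 and 10.38 in naïve CD8+ cells and did not pass the test. Of its further probe sets, 1 rose by 1.42 and another, dim one fell by 1.86. Psmd9 and Psmd10, chaperones of the 19S base, rose by 1.05 and 1.25, although the 2 naïve CD8+ arrays of Psmd10 read 7.07 and 8.11. Of the activators, Psme3 rose by 0.82 (SE 0.18, adjusted p = 0.00835), a call lost without replicate 2 of the CD8+ TEM or replicate 1 of the naïve CD8+ cells and with centring on the median of the genes, and Psme4, which encodes PA200, was almost level at -0.06 (SE 0.19, adjusted p = 0.865). Psmf1, the inhibitor PI31, rose by 0.80 (SE 0.20, adjusted p = 0.0136).

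A probe set other than the chosen one gave a different result for some of these genes. The called members of the CD8+ comparison had 34 further probe sets, of which 20 had the same sign of change and 14 the opposite. In 9 of these 14 the opposite change was itself called, in Psma1, Psma3, Psma5, Psma6, Psmd4, Psmd9 and Psmf1. These 9 averaged 3.01 to 7.63 over the arrays, and 5 of them lay under 6, the limit for dim signal. With the mean of all probe sets, 27 members rose and 0 fell in CD8+ TEM cells, and Psma1 turned to -0.32, with an adjusted p of 0.168. In the CD4+ TEM comparison 4 of 5 further probe sets of called members had the same sign, and in the memory comparison 6 of 6. The 15 members without a call in CD8+ TEM cells had 20 further probe sets in 7 genes, and in a fit of all probe sets 7 of these rose and 5 fell. Those that rose averaged 6.19 to 11.40 over the arrays. They read Psmb4 (1.22, adjusted p = 0.000454), Psmc2 (0.63, adjusted p = 0.0271), Psmc6 (0.93, adjusted p = 0.00417, and 1.11, adjusted p = 0.0145), Psmd11 with 2 sets and Psmg2 (1.42, adjusted p = 0.000688). The 5 that fell belonged to Psmd11, Psme4 and Psmg2, and 4 of them lay under 6. Among members without a call, 1 further probe set rose and 7 fell in CD4+ TEM cells, and 2 rose and 4 fell in memory cells. The count of rises in the ATPase base and the standard core thus depended on which probe set stood for a gene.

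In CD4+ TEM cells, 10 members rose and 1 fell, against 16.4% of all genes that rose and 10.1% that fell. The 10 make 20.4% of the family, a share near that of all genes, and among genes with a group mean of at least 6 the shares were 25.5% of the members and 29.2% of all. The rises were those of Psmb2, Psmb8, Psmb9, Psmc3ip, Psmd8, Psmd12, Psma4, Psma5, Psmd2 and Psmg1, and Psme3ip1 fell. Psmb2 read 10.53 and 10.57 in CD4+ TEM against 9.19 and 9.13 in naïve CD4+ cells, a change of 1.39 (SE 0.19, adjusted p = 0.00101), and Psmd8 read 11.80 and 11.83 in CD4+ TEM against 11.04 and 11.09 in naïve CD4+ cells, a change of 0.75 (SE 0.15, adjusted p = 0.00715). Groups of both genes were well apart. The standard core had 3 rises among 14 genes and a median of 0.34, and all 14 changes were above 0. Centring on the median of the genes moved the median of all genes to -0.57. It left 3 members higher and 16 lower in CD4+ TEM cells, beside 1843 and 9870 of all 18193 genes. The direction of the family in CD4+ cells thus turned with this scaling, as did that of all genes. Without any 1 array of the compared groups, 4 or 5 members rose and 0 fell, and Psmb2, Psmb8, Psmc3ip and Psmd8 were among them each time.

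Memory CD4+ cells had 7 members higher and 2 lower than in naïve CD4+ cells, beside 13.5% and 9.78% of all genes, and the members' shares were 14.3% and 4.08%. The rises were Psmb8, Psmb9, Psmb2, Psmd8, Psmd2, Psma5 and Psmc3ip, in a comparison that shares its naïve CD4+ arrays with that of the CD4+ TEM cells. Psmd6, a lid subunit, was lower, with 11.38 and 11.36 in memory against 12.10 and 12.01 in naïve CD4+ cells, a change of -0.68 (SE 0.12, adjusted p = 0.00559), and Psme3ip1 fell as well. In CD4+ TEM cells Psmd6 read 11.81 and 11.82, and its change of -0.24 (SE 0.12, adjusted p = 0.223) did not pass the test. Between CD4+ TEM and memory cells, limma called 0 members higher and 0 lower, where 3.89% of all genes were higher and 1.64% lower. At an unadjusted p under 0.05 it gave 3 members as higher, Psmd1, Psmd6 and Psme3. At that limit 3708 of all 18193 genes passed in either direction. With an intensity trend in the same tool, 1 member, Psmd6, was called higher. After centring on the median of the genes, 3 members rose and 11 fell in memory against naïve CD4+ cells, beside 1534 and 5110 of all 18193 genes. Leaving out 1 array in turn moved the counts as well.

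The difference between lineages was tested directly, as the TEM against naïve change of CD4+ cells less that of CD8+ cells. It was called negative for 11 members and positive for 0, beside 4.49% and 8.03% of all genes. At an unadjusted p under 0.05 it was negative for 24 members and positive for 0, beside 4752 of all 18193 genes in either direction. Among genes with a group mean of at least 6, it was called negative for 16 of 47 members, or 34.0%, against 9.23% of all. In the standard core 7 of 14 genes were called and the median difference was -0.71, in the 19S regulator 3 of 17 with a median of -0.50. The 11 were the catalytic Psmb5, Psmb6 and Psmb7, the structural Psmb2, the alpha subunits Psma1, Psma2 and Psma4, the regulator subunits Psmd1, Psmd7 and Psmd14, and Psma8. The largest difference was -1.73 (SE 0.35, adjusted p = 0.0176) for Psmd7, followed by -1.23 (SE 0.30, adjusted p = 0.0334) for Psma1 and -1.22 (SE 0.28, adjusted p = 0.0281) for Psmb5. Of the 4 immunoproteasome genes 0 were called, with 0.03 (SE 0.21, adjusted p = 0.953) for Psmb8 and -0.39 (SE 0.33, adjusted p = 0.523) for Psmb9.

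**Figure D4:**
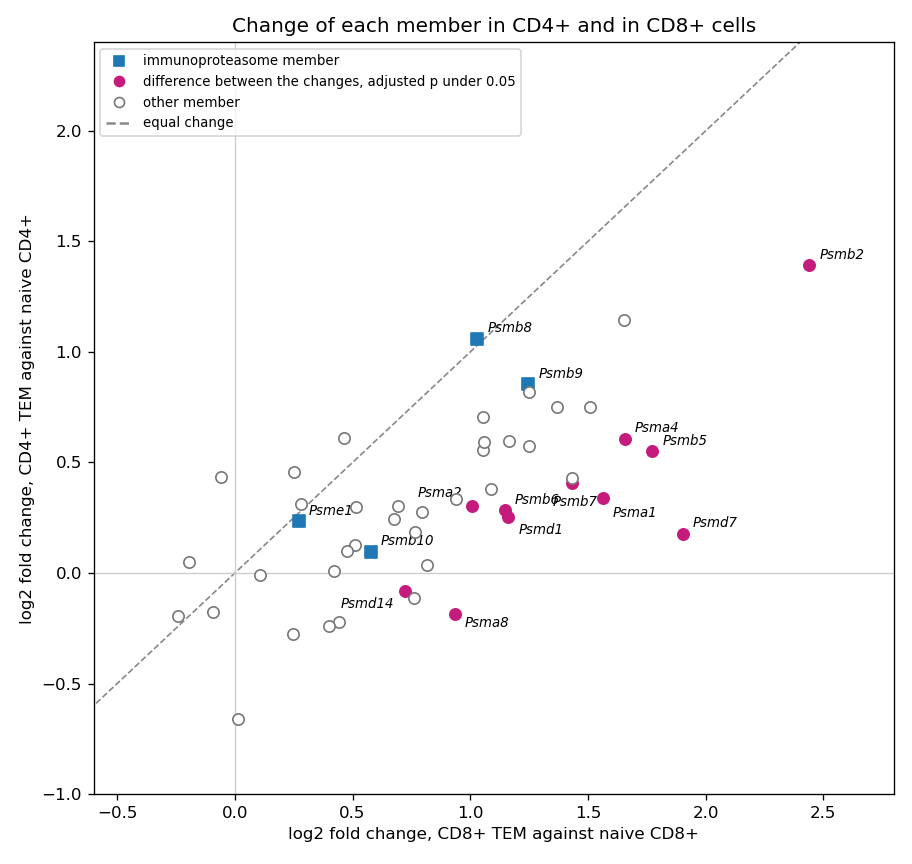
Log2 fold change of each member in CD4+ TEM against naïve CD4+ cells (vertical) and in CD8+ TEM against naïve CD8+ cells (horizontal), with the 4 immunoproteasome genes as squares, the 11 members whose changes differ as filled circles and equal change as a dashed line. Psmb8 lies close to the line, and all 11 filled circles lie below it.

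This difference rested on few arrays. Without replicate 1 of the CD8+ TEM cells or replicate 2 of the naïve CD4+ cells, 0 members were called. Leaving out replicate 2 of the CD8+ TEM or of the CD4+ TEM cells gave 1, replicate 1 of the CD4+ TEM cells 2, replicate 1 of the naïve CD4+ cells 3 and replicate 1 of the naïve CD8+ cells 4, while 18 were called without replicate 2 of the naïve CD8+ cells, the array that stood apart. The median difference over the family was -0.52 and lay between -0.77 and -0.36 in these fits.

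Naïve cells already differed. In naïve CD8+ cells 3 members were higher and 8 lower than in naïve CD4+ cells, beside 13.9% and 6.65% of all genes. Lower were Psma1, Psma2, Psma5, Psmb5, Psmb7, Psmd1, Psmg1 and Psmg4, and higher were Psme4, Psmg2 and Psmd12. Psmb7 read 10.47 and 10.54 in naïve CD8+ against 11.25 and 11.33 in naïve CD4+ cells, a change of -0.79 (SE 0.16, adjusted p = 0.00909). Psme4 went the other way, with 10.74 and 10.78 in naïve CD8+ against 9.95 and 9.72 in naïve CD4+ cells and a change of 0.93 (SE 0.19, adjusted p = 0.0116). The call of Psme4 was lost when its probe sets were averaged, which gave 0.08 with an adjusted p of 0.849, and without replicate 2 of the naïve CD4+ cells, as was that of Psmb7 without this array. With centring on the median of the genes 2 were higher and 25 lower, beside 1892 and 3787 of all 18193 genes. Without 1 array in turn 1 to 16 members were called, and without replicate 1 of the naïve CD4+ cells 2 were higher and 1 was lower. Immunoproteasome genes gave 0 calls, with Psme1 nearest at 0.46 (SE 0.14, adjusted p = 0.0516).

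Among the cultured cells, CD4+ TEM cells had 0 members higher and 3 lower than CD8+ TEM cells, beside 2.19% and 3.53% of all genes. At an unadjusted p under 0.05, 0 members were higher and 24 lower, beside 3668 of all 18193 genes in either direction. The 3 were Psmb6, Psmd7 and Psma8. Psmb6 read 11.73 and 11.71 in CD4+ TEM against 12.37 and 12.46 in CD8+ TEM cells, a change of -0.70 (SE 0.13, adjusted p = 0.0208), and Psmd7 read 7.28 and 7.57 in CD4+ TEM against 8.62 and 8.57 in CD8+ TEM cells, a change of -1.17 (SE 0.25, adjusted p = 0.0346). With every probe set averaged, the difference of Psmd7 was -0.11, with an adjusted p of 0.832, and its call was also lost with the replicate block, at an adjusted p of 0.0577, and with centring on the median of the genes. Without either array of the CD8+ TEM cells or replicate 2 of the CD4+ TEM cells, 0 members were called, and without either naïve CD8+ array 8 were.

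Psma8 and Psmb11 were the only members whose highest group mean lay under 6. Psma8, a testis form of the alpha subunit Psma7, read 3.90 and 3.67 in CD8+ TEM cells and 2.68 to 3.13 on the other arrays, so its called change of 0.93 (SE 0.15, adjusted p = 0.00169) lies below the limit for dim signal. Psmb11, the thymic catalytic subunit, read 3.39 to 4.15 on all arrays and was called in none of the comparisons. The 2 genes that encode no proteasome component went opposite ways in CD4+ cells. Psmc3ip, a factor of meiotic recombination, changed by 1.15 (SE 0.20, adjusted p = 0.00384) in CD4+ TEM, 1.20 (SE 0.20, adjusted p = 0.00375) in memory and 1.65 (SE 0.20, adjusted p = 0.000327) in CD8+ TEM cells. In a limma fit of all probe sets, its other probe set gave 0.70 in CD4+ TEM cells and did not pass (adjusted p = 0.0744). That probe set passed at 0.82 in memory and 1.79 in CD8+ TEM cells. The CD4+ TEM call of Psmc3ip was lost without probe sets of a shared-transcript suffix. Psme3ip1, named for binding PA28 gamma, changed by -0.66 (SE 0.17, adjusted p = 0.0241) in CD4+ TEM and -0.89 (SE 0.17, adjusted p = 0.00754) in memory cells, and 0.01 (SE 0.17, adjusted p = 0.973) in CD8+ TEM cells. The CD4+ TEM call of Psme3ip1 was lost without any 1 array of the compared groups.

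Other proteins that work with the proteasome lie outside the naming rule. Of 17 such partners measured, 10 rose and 1 fell in CD8+ TEM cells, 1 rose and 3 fell in CD4+ TEM cells, and 1 rose and 2 fell in memory cells. Over all genes, 20.9% rose and 17.2% fell in CD8+ TEM, 16.4% and 10.1% in CD4+ TEM, and 13.5% and 9.78% in memory cells. Uchl5, a deubiquitinase of the 19S regulator, read 10.87 and 10.85 in CD8+ TEM cells, against 9.45 and 9.29 in naïve CD8+ cells, a change of 1.50 (SE 0.14, adjusted p = 6.8e-05), and its change in CD4+ TEM cells was 0.20 (SE 0.14, adjusted p = 0.368). Vcp, the unfoldase that hands substrates to the proteasome, changed by 1.39 (SE 0.16, adjusted p = 0.000262) in CD8+ TEM and 0.11 (SE 0.16, adjusted p = 0.708) in CD4+ TEM cells. With every probe set averaged, the CD8+ change of Vcp was 0.16, with an adjusted p of 0.423, and did not pass the test. The differences between the lineages for Uchl5 and Vcp passed the test, at -1.30 (SE 0.19, adjusted p = 0.00541) and -1.28 (SE 0.23, adjusted p = 0.0115). That of Uchl5 was called in every alternative run, whereas that of Vcp was lost with the mean of all probe sets, at -0.29 with an adjusted p of 0.41, and without replicate 2 of the CD8+ TEM cells, with an adjusted p of 0.0512. Pomp, which assists core assembly, rose by 1.11 (SE 0.16, adjusted p = 0.00074) in CD8+ TEM cells. Ecpas, an adaptor and scaffold of the 26S proteasome, rose in all 3 comparisons, by 1.36 in CD4+ TEM, 1.01 in memory and 0.89 in CD8+ TEM cells, and with the mean of all probe sets its memory change was 0.38, with an adjusted p of 0.299. Ubqln2, a further partner, changed by -1.10 in CD4+ TEM and -0.88 in memory cells, calls kept in every alternative fit. Ngly1 changed by -0.99 in CD4+ TEM cells, a call lost without replicate 1 of the naïve CD4+ or replicate 2 of the CD4+ TEM cells. Among the transcription factors, Nfe2l1, the main activator of proteasome genes under proteasome stress, rose in CD8+ TEM cells by 0.98 (SE 0.20, adjusted p = 0.00501). In CD4+ TEM cells Nfe2l1 read 9.83 and 9.68, against 9.03 and 9.28 in naïve CD4+ cells, and did not pass the test. Nfe2l2 fell in all 3 comparisons, by 1.32 in CD4+ TEM, 1.02 in memory and 1.59 in CD8+ TEM cells. The CD4+ TEM call of Nfe2l2 was lost without replicate 1 of the CD4+ TEM or of the naïve CD4+ cells, and its memory call without either naïve CD4+ array and in 4 other fits.

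**Figure D5:**
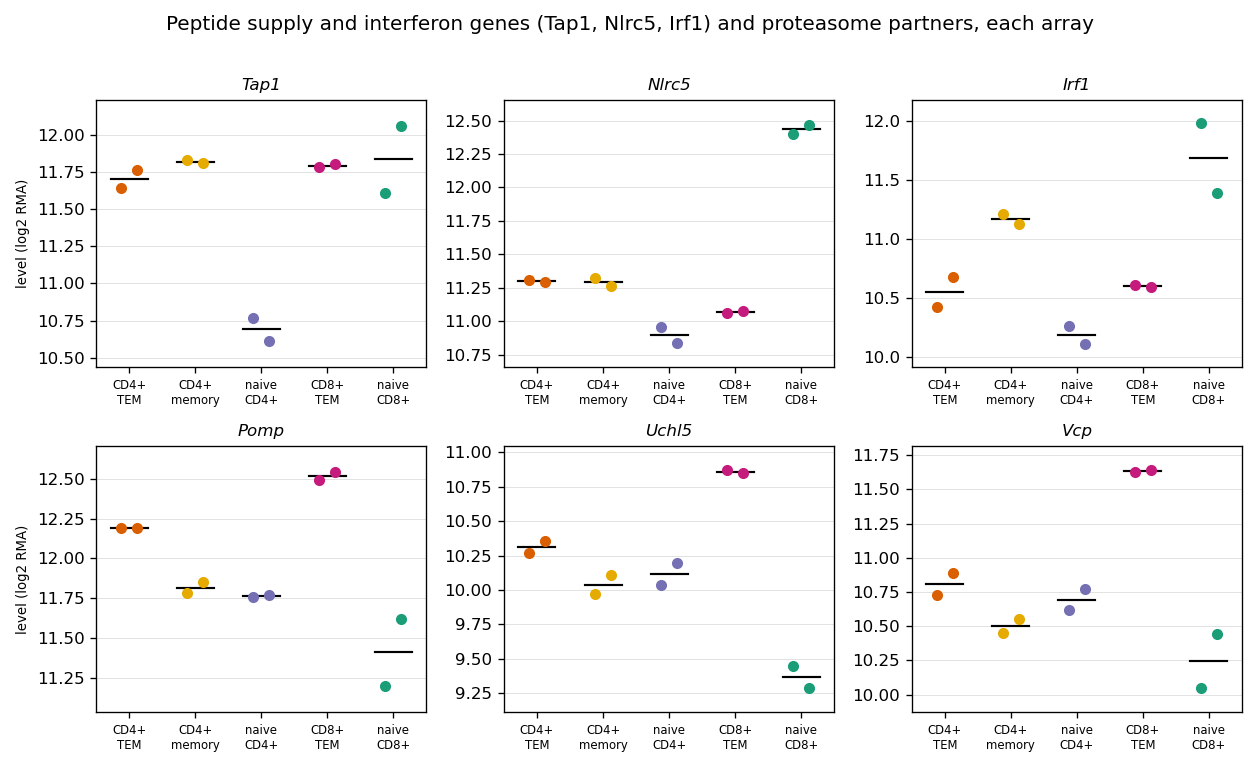
Log2 RMA level of 3 genes of peptide supply and the interferon response (top row) and of 3 proteasome partners (bottom row) on each array, with dots for the 2 arrays of a group, a line for their mean and a separate axis range for each gene. Through its brightest probe set Tap1 is lowest in naïve CD4+ cells, Nlrc5 and Irf1 are highest in naïve CD8+ cells, and Pomp, Uchl5 and Vcp are highest in CD8+ TEM cells.

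Psmb8 and Psmb9 lie beside Tap1 and Tap2, the peptide transporter genes, in the MHC region of chromosome 17, in the order Psmb9, Tap1, Psmb8, Tap2. Through its brightest probe set Tap1 rose in CD4+ TEM and memory cells and did not pass the test in CD8+ TEM cells. It read 11.64 and 11.76 in CD4+ TEM, 11.83 and 11.81 in memory and 10.77 and 10.61 in naïve CD4+ cells, against 11.78 and 11.80 in CD8+ TEM and 11.61 and 12.06 in naïve CD8+ cells. Its changes were 1.01 (SE 0.17, adjusted p = 0.00285) in CD4+ TEM, 1.13 (SE 0.17, adjusted p = 0.002) in memory and -0.04 (SE 0.17, adjusted p = 0.882) in CD8+ TEM cells, and the difference between the lineages was 1.06 (SE 0.24, adjusted p = 0.0259). With every probe set averaged, the CD4+ TEM change of Tap1 was 0.28, with an adjusted p of 0.174, and the memory change 0.45, with an adjusted p of 0.042. The lineage difference of Tap1 was then 0.32, with an adjusted p of 0.361, and it was also lost without any 1 array of the CD4+ TEM, naïve CD4+ or CD8+ TEM cells. Of the 11 measured genes of peptide supply and interferon response, 4 rose and 0 fell in CD4+ TEM, 5 rose and 0 fell in memory, and 2 rose and 3 fell in CD8+ TEM cells. Over all genes, 16.4% rose and 10.1% fell in CD4+ TEM, 13.5% and 9.78% in memory, and 20.9% and 17.2% in CD8+ TEM cells. The 3 that fell in CD8+ TEM cells were Nlrc5, the activator of MHC class I genes, by 1.37, and the interferon response factors Irf1, by 1.08, and Irf9, by 1.05. In CD4+ TEM cells Nlrc5 rose by 0.40, a change that was -0.20 after centring on the median of the genes and lost its call in most alternative fits, and Irf1 and Irf9 changed by 0.36 and 0.10 without passing the test. In naïve CD8+ cells these 3 genes were higher than in naïve CD4+ cells, Nlrc5 by 1.54, Irf1 by 1.50 and Irf9 by 0.70. Between CD8+ TEM and CD4+ TEM cells their means were 11.07 and 11.30 for Nlrc5, 10.60 and 10.55 for Irf1, and 8.84 and 9.30 for Irf9. A link of these genes to Psmb8 and Psmb9 was not tested. Irf8, a further interferon response factor, rose by 5.29 in CD4+ TEM, 4.42 in memory and 4.38 in CD8+ TEM cells. The part of lymphoma RNA in its values was not tested.

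The chaperonin CCT, a large cytosolic complex with no part in proteolysis, was taken for comparison. Of its 8 genes, 2 rose in CD4+ TEM, 1 in memory and 5 in CD8+ TEM cells, and 0 fell. Over all genes, 16.4%, 13.5% and 20.9% rose in these comparisons, and 10.1%, 9.78% and 17.2% fell. The median changes of the CCT genes were 0.26, 0.02 and 0.46. Tcp1, the founding subunit of CCT, changed by 0.95 (SE 0.13, adjusted p = 0.00118) in CD4+ TEM and 0.95 (SE 0.13, adjusted p = 0.000694) in CD8+ TEM cells. Cct5 changed by 0.86 (SE 0.14, adjusted p = 0.00128) in CD8+ TEM cells. With centring on the median of the genes the changes of Cct7 in CD4+ TEM and of Cct8 in CD8+ TEM cells turned negative. None of the 5 ubiquitin genes of the list had a probe set of its own here.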

How the data were processed

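RNA of 10 samples of sorted mouse T cells was measured on Affymetrix Mouse Genome 430 2.0 arrays, 2 arrays for each of 5 groups. The values were deposited by the authors as log2 intensities after RMA, which corrects background, normalizes between arrays and summarises probe sets; RMA is named in the submitters' processing notes, and its version is not given in the sources used here. Of 45101 probe sets, 34945 had 1 gene symbol in the platform annotation, 932 had several and 9160 had none, and 64 were controls. Symbols were updated through Entrez identifiers in the RefSeq table for 34741 probe sets. Where a gene had several probe sets the brightest on average was used, without a filter on dim values, which left 18193 genes.

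A model with 1 mean per group was fitted to all genes and all 10 arrays with limma 3.58.1 in R 4.3.3, with empirical Bayes moderation and 5 residual degrees of freedom. The 7 contrasts were TEM and memory against naïve CD4+ cells, TEM against naïve CD8+ cells, CD4+ TEM against memory and against CD8+ TEM cells, naïve CD8+ against naïve CD4+ cells, and the difference of the TEM changes of both lineages. A gene was called when its p adjusted by Benjamini-Hochberg over the 18193 genes was under 0.05, and adjusted p-values in the text are of this kind. With 2 arrays a group, an exact permutation test of 1 gene cannot go below 0.333 (2-sided). The fit was tested on simulated data. Python 3.11.15 with pandas 2.3.3 and matplotlib 3.10.9 made the summaries and plots.

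The members and the gene lists were chosen with earlier results of these data known, so list counts are descriptions. Named were the immunoproteasome, standard catalytic and activator genes, in each contrast the 5 largest called changes in each direction with groups apart, the members whose lineage difference was called, dim members, members that are no proteasome component, up to 4 called genes of each list, and the marker genes. Nfe2l1 and the remaining members were named after their values were seen.

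Alternatives were the mean of all probe sets, probe sets without a shared-transcript suffix, genes with a group mean of at least 6, quantile normalization, median centring, an intensity trend, a fit of the compared groups alone, the replicate number as a block, and each array left out. Centring each array on the median of its genes was added after seeing the data. Where leaving out an array left a group with 1, that array was assumed to vary like the other groups. Labels naming germinal center B cells and a foxo1 status that varied within groups were set aside, since titles and source names give the T cell groups.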

Additional observations from a re-analysis of the deposited data

Results flagged for a closer look

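For 11 members the change in CD4+ cells and the change in CD8+ cells, each TEM against naïve, differed in the limma test of the difference itself, and all 11 differences were negative on the log2 scale. For the catalytic subunits the difference was -1.224 in Psmb5, -1.023 in Psmb7 and -0.864 in Psmb6. For the structural subunit Psmb2 it was -1.048. Among alpha subunits it was -1.226 in Psma1, -1.048 in Psma4 and -0.705 in Psma2. Among regulator subunits it was -1.727 in Psmd7, -0.909 in Psmd1 and -0.804 in Psmd14. For Psma8, whose levels lie below the limit for dim signal, it was -1.118. Averaging every probe set of Psma1 made its difference positive. Of these genes Psmb5, Psmb7, Psma1, Psma2 and Psmd1 were also lower in naïve CD8+ than in naïve CD4+ cells, and the difference contains both naïve groups.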

How the results depend on the processing

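The small number of arrays limits every result, and leaving out 1 array moved most counts of called members. The total called was 4 to 14 in CD4+ TEM against naïve CD4+ cells, 24 to 37 in CD8+ TEM against naïve CD8+ cells, 4 to 13 in memory against naïve CD4+ cells, 0 to 1 in CD4+ TEM against memory cells, 0 to 8 in CD4+ TEM against CD8+ TEM cells, 1 to 16 in naïve CD8+ against naïve CD4+ cells and 0 to 18 for the lineage difference. The median of the immunoproteasome genes less that of the other members was 0.196 to 0.276 in CD4+ TEM, -0.172 to 0.056 in CD8+ TEM, 0.315 to 0.467 in memory and 0.230 to 0.531 in naïve CD8+ against naïve CD4+ cells. Without replicate 1 of the naïve CD4+ cells, 3 members were called between naïve groups, with more higher than lower. Over the same fits Psme3 changed by -0.006 (without replicate 2 of the naïve CD4+ cells) to 0.079 in CD4+ TEM cells, and Psme4 by -0.063 (without replicate 1 of the memory cells) to 0.447 in memory cells.

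Centring each array on the median of its genes was chosen after seeing the data. It called 19 members in CD4+ TEM and 14 in memory cells, mostly lower, and 27 between naïve groups. Of all 18193 genes it called 9870, 5110 and 3787 lower in these comparisons, in that order. Between the TEM groups it called 1 member, and for the lineage difference 17. In CD4+ TEM cells it gave log2 changes of -0.497 for Psmb10, -0.042 for Psmb5, -0.308 for Psmb6, -0.183 for Psmb7, -0.359 for Psme1, -0.556 for Psme3, -0.156 for Psme4, -0.052 for Cct7 and -0.195 for Nlrc5. In memory cells it gave -0.173 for Psmb10, -0.137 for Psmb5, -0.143 for Psmb6, -0.036 for Psmb7, -0.116 for Psme1 and -0.217 for Psme4. In CD8+ TEM cells it gave -0.067 for Psmd12, -0.130 for Psmd6, -0.256 for Psme1 and -0.063 for Cct8. Of 137 gene results, this setting reversed 19 and lost 23 calls, and the shift of a whole array by a constant is its own construction.

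The mean of all probe sets gave -0.321 for Psma1 in CD8+ TEM cells, 0.146 between naïve groups and 0.303 for the lineage difference, -0.578 and -0.457 for Psme4 in CD4+ TEM and memory cells, and 0.277 for Vcp between the TEM groups. It moved the immunoproteasome less other median to 0.390 in CD4+ TEM, 0.116 in CD8+ TEM and 0.544 in memory cells, and to -0.280 between the TEM groups. Without suffixed probe sets that median was -0.068, -0.453 and 0.100 in CD4+ TEM, CD8+ TEM and memory cells, 6 members were called between the TEM groups, Cct8 was -0.065 in CD8+ TEM cells and 0.332 between the TEM groups, and Psme4 was 0.215 in CD8+ TEM cells. Quantile normalization moved the CD8+ median to -0.139. An intensity trend called 19 members in CD4+ TEM, 19 in memory, 1 between CD4+ TEM and memory cells, 10 between the TEM groups and 18 for the lineage difference. Between the TEM groups, 5 were called among genes with a group mean of at least 6, 6 after median centring and 7 with the compared groups alone, a setting that called 4 between naïve groups. The cause of these moves was not tested, apart from the probe sets and arrays that each setting leaves out.

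Deviations of arrays with the same replicate number correlated between -0.009 and 0.029 over genes. Such correlations cannot show whether these arrays shared a mouse or culture. With the replicate block, 11 members were called in CD4+ TEM, 32 in CD8+ TEM, 10 in memory, 0 between CD4+ TEM and memory, 4 between the TEM groups, 9 between naïve groups and 10 for the lineage difference.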
